A study of Mus musculus with 11 samples.

Results

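Interferon response genes are the transcripts that cells switch on after an interferon binds its receptor. They were followed in kidneys scarred by ureter obstruction and in lungs scarred by bleomycin, beside healthy kidneys and healthy lungs. The set held 43 genes, taken as every probe whose symbol in the platform annotation was one of them. They were divided by role into 4 regulators, 31 targets of type I interferon, and 8 GTPase and antigen-processing targets of interferon gamma. The division follows textbook usage, and many of these genes answer to both kinds of interferon. On the array, 41 of the 43 had a probe, 74 probes in all of 45281, and 34 had a probe above background on at least 2 arrays. These 34 were tested among 12865 genes.

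The 11 Illumina bead arrays measured total RNA of whole organs from adult BALB/C mice, all labelled female. Fibrotic kidneys (n = 2) came from mice with unilateral ureter obstruction, in which 1 ureter is tied off, and fibrotic lungs (n = 3) from mice given bleomycin into the trachea, a drug that injures the lung epithelium. Healthy kidneys (n = 3) and healthy lungs (n = 3) came from untreated animals, and the titles give them as organs of the same 3 mice. How long after surgery or injection the organs were taken is not given in the sources used here. Each array of a group is a separate animal, so an SD or SE includes the spread between animals, and the 2 fibrotic kidneys limit the precision most.

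Type I interferons signal through the receptor chains Ifnar1 and Ifnar2 and the kinases Jak1 and Tyk2 to a complex that holds Stat2 and Irf9 and binds the interferon-stimulated response element (ISRE) in target promoters. Interferon gamma signals through Ifngr1 and Ifngr2 and the kinases Jak1 and Jak2 to the gamma-activated site (GAS) in target promoters, and through newly made Irf1, which binds ISRE-like sites. Type I targets include RNA sensors, antiviral effectors and the ubiquitin-like Isg15, whereas interferon gamma is best known for the GTPases that attack pathogen vacuoles and for the peptide loading of class I molecules.

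Promoter sequences of 5 members are printed because their levels carry the comparisons that follow and because they show how the elements of both pathways are arranged. The windows are RefSeq's, on build GRCm38.p6, and run from 250 bases before a gene's start to 50 bases after it, in the direction of the gene. Capitals mark an ISRE core, which is GAAA, any 2 bases and GAAA, searched on both strands, or a GAS, which is TTC, any 3 bases and GAA and reads the same on both strands. Isg15 (chr4:156200769-156201068, reverse strand) holds 3 overlapping ISRE cores between 78 and 57 bases upstream of the start. Ifitm3 (chr7:141010695-141010994, reverse strand) holds 2 ISRE cores just after the start, and a GAS overlaps the second. Gbp2 (chr3:142620413-142620712, forward strand) holds 1 ISRE core 59 to 50 bases upstream, and the first of 2 windows of Gbp3 (chr3:142559794-142560093, forward strand) holds 2 overlapping cores between 45 and 30 bases upstream. The first of 2 windows of Irf1 (chr11:53769764-53770063, forward strand) holds a GAS 90 to 82 bases upstream and no ISRE core.

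The 5 windows read as follows.
Isg15: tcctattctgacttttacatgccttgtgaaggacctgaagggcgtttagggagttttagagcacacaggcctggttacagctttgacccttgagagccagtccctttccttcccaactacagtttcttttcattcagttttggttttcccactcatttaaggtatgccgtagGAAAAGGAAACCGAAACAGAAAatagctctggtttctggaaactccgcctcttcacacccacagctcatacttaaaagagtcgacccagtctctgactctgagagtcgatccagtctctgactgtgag
Ifitm3: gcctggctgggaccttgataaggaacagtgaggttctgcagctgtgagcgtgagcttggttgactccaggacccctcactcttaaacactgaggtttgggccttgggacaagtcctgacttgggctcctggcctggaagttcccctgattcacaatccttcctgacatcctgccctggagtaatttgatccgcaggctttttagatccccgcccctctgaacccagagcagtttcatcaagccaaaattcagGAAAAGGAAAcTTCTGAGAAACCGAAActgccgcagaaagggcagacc
Gbp2: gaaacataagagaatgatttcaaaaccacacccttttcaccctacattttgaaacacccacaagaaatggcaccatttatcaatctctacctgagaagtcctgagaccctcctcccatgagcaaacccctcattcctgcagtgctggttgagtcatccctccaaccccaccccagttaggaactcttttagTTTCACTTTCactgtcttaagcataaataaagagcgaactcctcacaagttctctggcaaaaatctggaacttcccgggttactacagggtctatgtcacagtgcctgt
Gbp3: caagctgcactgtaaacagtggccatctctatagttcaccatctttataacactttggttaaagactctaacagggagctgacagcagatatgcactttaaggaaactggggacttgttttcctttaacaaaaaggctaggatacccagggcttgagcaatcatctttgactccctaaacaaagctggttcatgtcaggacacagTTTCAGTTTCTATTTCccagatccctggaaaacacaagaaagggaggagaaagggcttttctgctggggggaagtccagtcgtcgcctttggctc
Irf1: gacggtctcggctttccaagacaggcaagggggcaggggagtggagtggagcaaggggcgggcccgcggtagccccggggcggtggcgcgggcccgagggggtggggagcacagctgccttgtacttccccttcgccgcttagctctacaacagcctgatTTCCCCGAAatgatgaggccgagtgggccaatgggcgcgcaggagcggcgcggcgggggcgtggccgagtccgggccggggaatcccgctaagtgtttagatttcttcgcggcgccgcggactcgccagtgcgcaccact

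RefSeq windows were matched by symbol for 31 of the 43 members, 37 windows in all, and not for Usp18, Oas2, Dhx58, Zbp1, Mx1, Mx2, Parp14, Rtp4, Ifi27, Gbp6, Iigp1 or Tap2. An ISRE core lay in the windows of 15 of the 31, or 48.4%, against 3.99% of all 27025 genes with a window. By class these were 10 of 22 type I targets, 4 of 5 interferon gamma targets (Gbp2, Gbp3, Igtp and Irgm1) and 1 of 4 regulators (Stat2). A GAS lay in those of 9 of the 31, or 29%, against 9.55% of all genes. Among members that rose in the fibrotic kidney 7 of 15 had the core, or 46.7%, and among tested members that did not rise 4 of 9, or 44.4%, whereas a GAS lay in 3 of 15, or 20%, and in 5 of 9, or 55.6%. The differences of these shares were not tested. A match describes the letters of a window and does not show that a factor binds there.

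Levels are log2 intensities after background correction and quantile normalisation. On this scale a probe at background reads about 4.3 to 5.4, and a level is compared between arrays and never between genes, since probes differ in brightness. Adjusted p-values are limma's, by Benjamini-Hochberg over all 12865 genes, with a threshold of 0.05, and rose or fell is written of changes that passed it. Raw median intensity lay between 95.2 and 125 per array, and 17036 to 21504 probes were above background. Some arrays go against their labels or carry another tissue. All are labelled female, yet 8 arrays, every healthy one among them, read low for Xist and high for the Y-linked Eif2s3y. Both fibrotic kidneys and fibrotic lung 3 read the reverse, high for Xist and low for Eif2s3y, as the label has it. Both fibrotic kidneys also carried lung transcripts (Scgb1a1 12.48 and 11.35, against 4.52, 4.50 and 4.37 in healthy kidneys), and healthy lung 3 carried liver transcripts (Mup3 14.61, against 4.58 and 4.73 in the other two). Fibrotic lung 1 carried kidney transcripts (Umod 9.19, with 5.74 and 4.46 in the other two, against 4.55, 4.54 and 4.51 in healthy lungs). Mup3 read 4.41 and 4.39 in fibrotic kidneys, against 10.05, 9.26 and 7.94 in healthy ones. The kidney comparison cannot be made without the fibrotic kidneys, so in it the sex-linked difference and fibrosis cannot be told apart. In the lung, 0 members rose and 7 fell without fibrotic lung 1, 0 rose and 6 fell without fibrotic lung 3, and 0 rose and 8 fell without healthy lung 3.

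Fibrosis of the kidney came with a rise of interferon response genes. At least 1 member of every role rose, though only 1 of 2 sensors and 5 of 13 effectors. Of the 34 members tested, 23 rose and 0 fell, while over all genes 23.2% rose and 15.6% fell. The median log2 change of the members was 1.07, against 0.10 over all genes, and all 23 kept a positive sign under scaling to a common median and under the authors' scaling, where the median of all genes was 0.27 and -0.24. Under the authors' scaling 18 of these calls held, and those of Stat2, Ifit3, Trim25, Irgm1 and Tap2 were lost. All 4 regulators, both IFIT genes, all 3 genes of the oligoadenylate synthetase family and both peptide transporter chains were among the 23. The 11 that did not pass the threshold were Ube2l6, Zbp1, Mx1, Rsad2, Cmpk2, Isg20, Eif2ak2, Bst2, Samd9l, Ifi35 and Igtp, with changes between -0.42 and 1.12. For 28 members every fibrotic kidney was above every healthy one, and for Zbp1 every one was below, against 35.4% and 25.2% of all genes. Without fibrotic kidney 2, 17 members rose and Zbp1 fell (-0.63, adjusted p = 0.042), and Irf9, Stat2, Ifit3, Trim25, Irgm1 and Tap2 did not pass.

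In the fibrotic lung few members changed. A single member rose, Mx1, which was above background only in fibrotic lungs. The 7 that fell were Irf1, Rsad2, Cmpk2, Samd9l, Ifi27, Igtp and Tap2, while over all genes 18.9% rose and 18.9% fell. The median log2 change was -0.29, against -0.03 over all genes. Groups did not overlap for 2 members that were higher and 12 that were lower, against 26.1% and 26.8% of all genes. These directions are relative to the other genes: under the authors' own scaling the median of all genes was 0.48, 10 members rose and 2 fell, and under scaling to a common median it was 0.20, 3 rose and 4 fell. Set against the median of all genes, all 7 were below it by at least 0.54 log2 units under both of these scalings and without background correction. This is no check of the falls. The 7 were picked on the same arrays, and setting values against that median largely takes the scaling out. The changes of the 7 kept a negative sign under these settings. In the values reported, no member rose in both organs, and 3 (Irf1, Ifi27 and Tap2) rose in the fibrotic kidney and fell in the fibrotic lung. This too depends on the scaling. Under the authors' scaling Ifitm3, Isg15, Dhx58, Irf7, Mx2, Oasl1 and Rtp4 rose in both organs. There the lung falls of Irf1 and Ifi27 and the kidney rise of Tap2 did not pass the threshold.

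Most type I targets and most interferon gamma targets rose in the kidney, and most of either class did not pass the threshold in the lung. In the kidney 14 of 24 type I targets rose, with a median log2 change of 1.06, and 5 of 6 interferon gamma targets rose, with a median of 1.19. In the lung 1 type I target rose and 4 fell, with a median of -0.22, whereas 0 interferon gamma targets rose and 2 fell, with a median of -0.44. The shares over all genes were 23.2% higher and 15.6% lower in the kidney, and 18.9% and 18.9% in the lung. The lung medians depend on the scaling. Under a common median they were 0.08 for type I targets and -0.09 for interferon gamma targets, and under the authors' scaling 0.33 and 0.14. Relative to all genes' median, type I targets were at -0.19 as reported, -0.12 under a common median and -0.16 under the authors' scaling. Interferon gamma targets were at -0.41, -0.29 and -0.34 in the same order. Setting values against that median largely takes the scaling out, so these values are no check of the direction. With 6 interferon gamma targets measured, the classes were described and their difference was not tested.

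**Figure D1:**
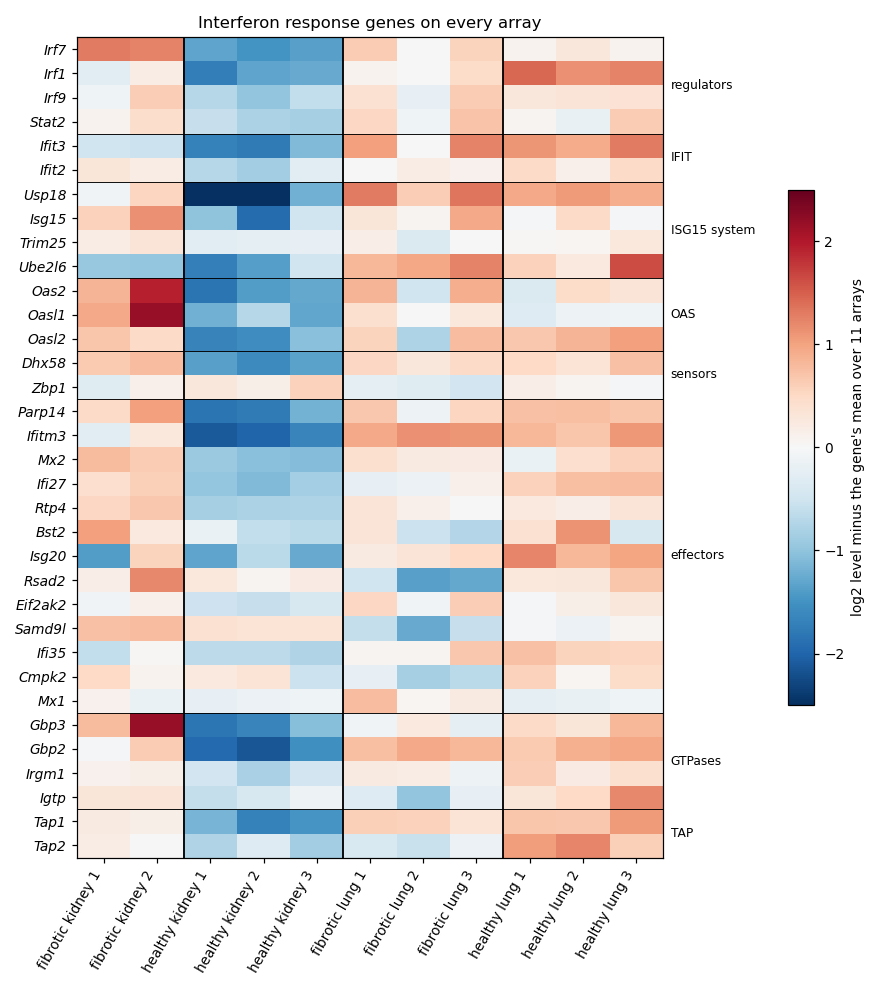
Level of the 34 tested members (rows, by role) on each of the 11 arrays (columns), as the log2 level minus that gene's mean over the arrays, from blue (below) to red (above). The healthy kidneys are the bluest block, with all 27 members called between the healthy organs below the healthy lungs, and the fibrotic kidneys lie above the healthy kidneys for most members.

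The regulators were measured first. Irf7, the factor that amplifies type I interferon transcription, read 7.40 and 7.34 in fibrotic kidneys, against 4.78, 4.61 and 4.75 in healthy ones, and 6.75, 6.11 and 6.66 in fibrotic lungs, against 6.19, 6.40 and 6.19 in healthy ones. It was not above background on any healthy kidney array, was at least 4.15-fold higher in fibrotic kidneys (adjusted p = 9.9e-06), and its lung groups overlapped (0.24 ± 0.17, SE, adjusted p = 0.3). Irf1, a main factor of the interferon gamma response whose window printed above holds a GAS, read 10.94 and 11.38 in fibrotic kidneys, against 9.48, 9.89 and 9.94 in healthy ones, and 11.29, 11.21 and 11.65 in fibrotic lungs, against 12.64, 12.34 and 12.44 in healthy ones. The 2 organs moved in opposite directions without overlap: it rose by 1.39 ± 0.21 (SE, adjusted p = 0.00064) log2 units in the kidney and fell by 1.09 ± 0.19 (SE, adjusted p = 0.0015) in the lung. Irf9, the DNA-binding subunit of the type I complex, read 8.53 and 9.25 in fibrotic kidneys, against 7.93, 7.65 and 8.03 in healthy ones, and 9.02, 8.44 and 9.28 in fibrotic lungs, against 8.93, 8.96 and 9.01 in healthy ones. It rose by 1.02 ± 0.27 (SE, adjusted p = 0.013) in the kidney, and without fibrotic kidney 2 the change was 0.66 ± 0.29 (SE, adjusted p = 0.13), while the lungs overlapped. Stat2, its partner, spanned 7.19 to 7.55 in fibrotic kidneys and 6.28 to 6.52 in healthy ones, and rose by 1.00 ± 0.28 (SE, adjusted p = 0.018), with 0.81 ± 0.36 (SE, adjusted p = 0.12) without fibrotic kidney 2.

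Every regulator thus stood higher in both fibrotic kidneys than in any healthy kidney, and Irf1 alone of the 4 fell in the fibrotic lung. Irf1 was read by 5 probes, of which the 2 brightest gave nearly the same values (1.39 and 1.48 in the kidney, -1.09 and -1.02 in the lung) and the 3 dimmer ones did not pass the threshold in either organ. The second probe of Irf9 changed by 0.64 in the kidney (adjusted p = 0.2) and by 0.58 in the lung (adjusted p = 0.2), against 1.02 and -0.06 for the brighter one.

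IFIT proteins bind foreign RNA and block its translation. Ifit2 read 8.63 and 8.51 in fibrotic kidneys, against 7.62, 7.46 and 8.06 in healthy ones, and 8.31, 8.51 and 8.43 in fibrotic lungs, against 8.81, 8.45 and 8.80 in healthy ones. It rose by 0.86 ± 0.20 (SE, adjusted p = 0.0063) in the kidney, where the groups did not overlap, and the lungs overlapped. Ifit3 read 9.13 and 9.09 in fibrotic kidneys, against 7.92, 7.86 and 8.52 in healthy ones, and 10.65, 9.62 and 10.85 in fibrotic lungs, against 10.72, 10.54 and 10.91 in healthy ones. Its kidney groups were apart and it rose by 1.01 ± 0.33 (SE, adjusted p = 0.036), a call that was lost without either fibrotic kidney (1.04 ± 0.44, SE, adjusted p = 0.11 without kidney 2) and without healthy kidney 1 or 2. A second, dimmer probe of Ifit3 changed by -0.30 in the kidney (adjusted p = 0.67), the one case among the 15 members with several probes where kidney signs differed. Ifit1, the founding member, was not above background on any array.

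Isg15 is conjugated to proteins by a chain of enzymes much as ubiquitin is. Isg15 read 7.41 and 7.98 in fibrotic kidneys, against 5.84, 4.92 and 6.35 in healthy ones, and 7.15, 6.90 and 7.78 in fibrotic lungs, against 6.79, 7.31 and 6.80 in healthy ones. Both fibrotic kidneys were above the healthy ones, 1 of which was not above background, and it rose by 1.99 ± 0.40 (SE, adjusted p = 0.0032), while the lungs overlapped. Usp18, which removes Isg15 from proteins and damps signalling at Ifnar2, read 8.55 and 9.17 in fibrotic kidneys, against 6.13, 5.69 and 7.44 in healthy ones, and 9.94, 9.24 and 9.98 in fibrotic lungs, against 9.59, 9.69 and 9.55 in healthy ones. Healthy kidney 3 was higher than the other two, yet below both fibrotic kidneys, and Usp18 rose by 2.44 ± 0.44 (SE, adjusted p = 0.0017). Its second probe, above background on 7 arrays, rose in the lung by 1.07 (adjusted p = 0.0042), against 0.11 for the brighter one, so probes of Usp18 gave different lung results.

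Trim25, a ubiquitin ligase that also attaches Isg15, read 10.04 and 10.18 in fibrotic kidneys, against 9.60, 9.64 and 9.66 in healthy ones, and 10.03, 9.50 and 9.85 in fibrotic lungs, against 9.89, 9.91 and 10.11 in healthy ones. It rose by 0.47 ± 0.17 (SE, adjusted p = 0.048), the smallest of the 23 rises, and the call was lost without any 1 of the 5 kidney arrays (0.41 ± 0.21, SE, adjusted p = 0.19 without fibrotic kidney 2). Ube2l6, the enzyme that passes Isg15 on for conjugation, read 5.84 and 5.83 in fibrotic kidneys, against 5.08, 5.41 and 6.30 in healthy ones, and 7.63, 7.77 and 8.04 in fibrotic lungs, against 7.38, 7.04 and 8.43 in healthy ones. Kidneys and lungs both overlapped, with a difference of 0.24 ± 0.42 (SE, adjusted p = 0.69) in the kidney. Its second probe did rise in the kidney, by 1.02 (adjusted p = 0.016), and changed by -0.58 in the lung (adjusted p = 0.099), opposite in sign to the 0.20 of the brighter probe. Herc6, the main ligase of Isg15 in mouse, was not analysed here.

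Oligoadenylate synthetases (OAS) sense double-stranded RNA and activate a ribonuclease. Of this family Oas2 and the OAS-like Oasl1 and Oasl2 were tested, and all 3 rose in the kidney. Oas2 read 7.24 and 8.33 in fibrotic kidneys, against 4.55, 4.99 and 5.10 in healthy ones, and 7.24, 5.89 and 7.30 in fibrotic lungs, against 6.03, 6.85 and 6.71 in healthy ones. No healthy kidney was above background, and Oas2 was at least 5.53-fold higher in fibrotic kidneys (adjusted p = 0.00079), with kidney 2 the brighter. Oasl1, which in mouse holds back translation of Irf7, read 6.69 and 7.92 in fibrotic kidneys, against 4.56, 5.03 and 4.45 in healthy ones, and 6.15, 5.75 and 6.02 in fibrotic lungs, against 5.43, 5.63 and 5.64 in healthy ones. Here too no healthy kidney was above background, and fibrotic kidneys were at least 3.97-fold higher (adjusted p = 0.00015). Its fitted change of 2.63 depended on the array, at 3.23 without fibrotic kidney 1 and 2.02 without kidney 2. The fibrotic lungs were all just above the healthy ones (0.41 ± 0.28, SE, adjusted p = 0.29).

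Oasl2, an OAS-like protein with ubiquitin-like domains, read 9.21 and 9.00 in fibrotic kidneys, against 6.86, 6.97 and 7.48 in healthy ones, and 9.08, 7.76 and 9.29 in fibrotic lungs, against 9.20, 9.38 and 9.56 in healthy ones. It rose by 2.00 ± 0.39 (SE, adjusted p = 0.0026) in the kidney without overlap. Fibrotic lung 2 was well below the other two for Oas2 and Oasl2, and the lungs overlapped. Fibrotic lung 2 also had the lowest median level over the 24 type I targets among the lungs, 7.67, with 7.91 in each of the other fibrotic lungs and 8.52, 8.15 and 8.55 in healthy lungs. Oas1a, above background on 1 array, and Oas3, on none, were not tested.

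The RNA and nucleic acid sensors diverged. Dhx58, also called LGP2, a helicase that tunes the RIG-I family, read 6.88 and 7.00 in fibrotic kidneys, against 4.86, 4.63 and 4.89 in healthy ones, and 6.73, 6.51 and 6.70 in fibrotic lungs, against 6.72, 6.56 and 6.96 in healthy ones. The healthy kidneys were not above background and Dhx58 was at least 3.08-fold higher in the fibrotic kidneys (adjusted p = 1.3e-05), while lungs overlapped. All 3 of its tested probes rose in the kidney, and another was not above background on any array. Zbp1, which senses Z-form nucleic acid and triggers cell death, read 6.14 and 6.57 in fibrotic kidneys, against 6.72, 6.59 and 7.02 in healthy ones, and 6.19, 6.14 and 5.96 in fibrotic lungs, against 6.61, 6.52 and 6.41 in healthy ones. In both organs every fibrotic array was below every healthy one, and neither change passed the threshold (-0.42 ± 0.18, SE, adjusted p = 0.093 in the kidney and -0.42 ± 0.16, SE, adjusted p = 0.067 in the lung). Ifih1, the sensor of long double-stranded RNA, was not above background on any array.

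**Figure D2:**
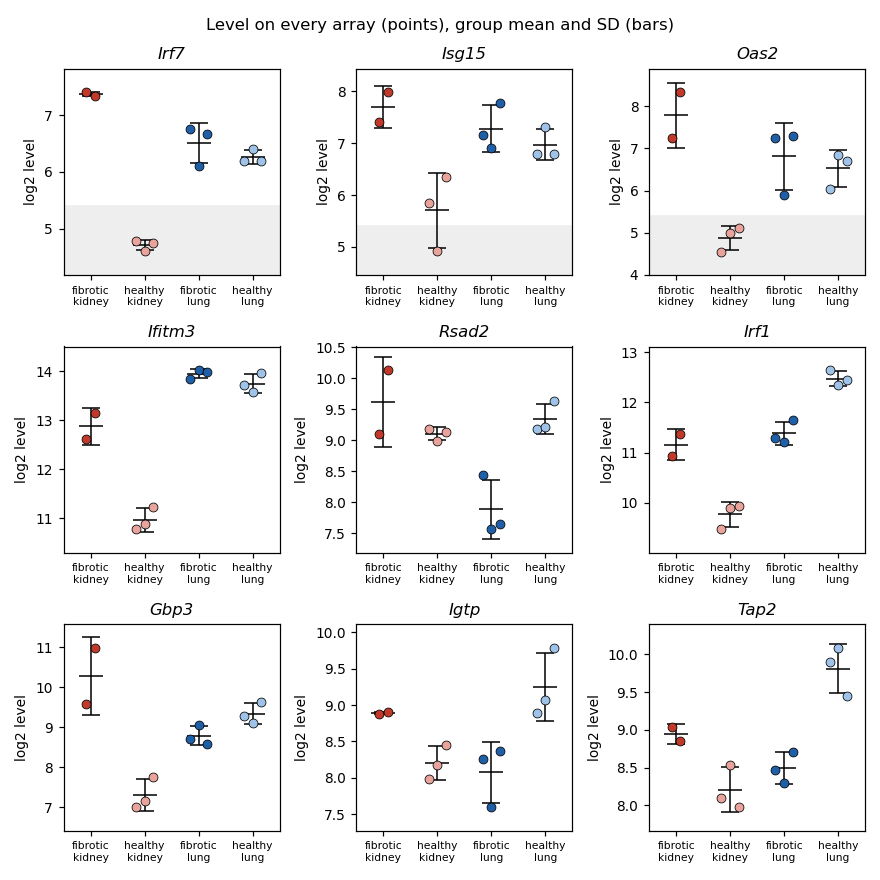
Log2 level of 9 members on every array (points), with the group mean (long bar) and SD (whiskers), n = 2 fibrotic kidneys and 3 of each other group. Each panel has its own vertical range, and grey marks levels up to the highest value, over arrays, of the dimmest probe above background. Irf7 and Oas2 are in the grey band in healthy kidneys, and Rsad2, Irf1, Igtp and Tap2 are lower in fibrotic than in healthy lungs.

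Of 13 antiviral effectors tested, 5 rose and 0 fell in the kidney, against 23.2% and 15.6% of all genes. In the lung 1 rose and 4 fell, against 18.9% and 18.9%. Ifitm3, which blocks virus entry at the membrane, read 12.61 and 13.14 in fibrotic kidneys, against 10.78, 10.88 and 11.23 in healthy ones, and 13.84, 14.02 and 13.99 in fibrotic lungs, against 13.71, 13.57 and 13.96 in healthy ones. It rose by 1.91 ± 0.21 (SE, adjusted p = 8.4e-05) in the kidney, where the groups were apart, and was higher in every lung than in any kidney. Parp14, an ADP-ribosyltransferase, read 9.75 and 10.29 in fibrotic kidneys, against 7.45, 7.49 and 8.09 in healthy ones, and 9.94, 9.15 and 9.80 in fibrotic lungs, against 10.00, 10.02 and 9.96 in healthy ones. It rose by 2.35 ± 0.28 (SE, adjusted p = 0.00014) in the kidney. All 3 fibrotic lungs were below the healthy ones (-0.37 ± 0.25, SE, adjusted p = 0.27), and a second, dimmer probe of Parp14 fell there by 1.13 (adjusted p = 0.0035). Ifi27, a small membrane protein, read 12.26 and 12.44 in fibrotic kidneys, against 10.86, 10.74 and 10.99 in healthy ones, and 11.63, 11.68 and 11.97 in fibrotic lungs, against 12.41, 12.59 and 12.61 in healthy ones. Neither organ overlapped: Ifi27 rose by 1.49 ± 0.16 (SE, adjusted p = 7.9e-05) in the kidney and fell by 0.78 ± 0.14 (SE, adjusted p = 0.002) in the lung, and its second probe gave 1.53 and -0.75.

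Mx2, a gene of the dynamin-like GTPase family, read 6.57 and 6.40 in fibrotic kidneys, against 4.84, 4.72 and 4.69 in healthy ones, and 6.17, 5.99 and 5.97 in fibrotic lungs, against 5.61, 6.19 and 6.34 in healthy ones. It was not above background on healthy kidney arrays and at least 2.24-fold higher in fibrotic ones (adjusted p = 0.00015), with overlapping lungs. Rtp4, a receptor chaperone induced by type I interferon, read 5.80 and 5.94 in fibrotic kidneys, against 4.45, 4.48 and 4.51 in healthy ones, and 5.59, 5.41 and 5.27 in fibrotic lungs, against 5.52, 5.45 and 5.60 in healthy ones. It was likewise not above background on healthy kidney arrays and at least 1.46-fold higher in fibrotic ones (adjusted p = 6.2e-05). Mx1, the paralogue of Mx2 and defective in BALB/c and most other laboratory strains, is given for being the one rise in the lung, a choice made after its values were seen. It read 4.79 and 4.52 in fibrotic kidneys, against 4.48, 4.53 and 4.58 in healthy ones, and 5.45, 4.74 and 4.91 in fibrotic lungs, against 4.43, 4.50 and 4.57 in healthy ones. Only 2 of the 3 fibrotic lungs and no other array were above background, so Mx1 was tested only through the group with high values. For that reason its limma call (adjusted p = 0.039) is no support for a rise. Mx1 was at least 1.04-fold higher in fibrotic lungs, and the call was lost without any 1 of the healthy lungs (adjusted p = 0.057 to 0.11). Without fibrotic lung 1 or 3 it was above background on fewer than 2 arrays and was not tested.

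Rsad2 and Cmpk2 are neighbouring genes, for viperin, which makes a chain-terminating nucleotide, and for a mitochondrial nucleotide kinase. Rsad2 read 9.10 and 10.13 in fibrotic kidneys, against 9.19, 8.99 and 9.14 in healthy ones, and 8.44, 7.57 and 7.65 in fibrotic lungs, against 9.19, 9.21 and 9.63 in healthy ones. All fibrotic lungs were below all healthy ones, and Rsad2 fell by 1.46 ± 0.29 (SE, adjusted p = 0.0033) in the lung, the largest fall among the 34, while in the kidney only fibrotic kidney 2 was above the healthy ones (0.51 ± 0.33, SE, adjusted p = 0.25). Cmpk2 read 8.16 and 7.74 in fibrotic kidneys, against 7.89, 7.99 and 7.11 in healthy ones, and 7.44, 6.82 and 6.98 in fibrotic lungs, against 8.23, 7.71 and 8.12 in healthy ones. It fell by 0.94 ± 0.26 (SE, adjusted p = 0.018) in the lung, a call that was lost without fibrotic lung 2 (adjusted p = 0.069), fibrotic lung 3 (0.052) or healthy lung 1 (0.065), and its kidneys overlapped. Samd9l, a restriction factor, read 12.05 and 12.10 in fibrotic kidneys, against 11.71, 11.66 and 11.66 in healthy ones, and 10.73, 10.06 and 10.74 in fibrotic lungs, against 11.27, 11.18 and 11.39 in healthy ones. It fell by 0.77 ± 0.18 (SE, adjusted p = 0.0074) in the lung, and its kidney groups did not overlap (0.40 ± 0.20, SE, adjusted p = 0.14).

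Bst2, or tetherin, which holds budding virus at the cell surface, read 7.75 and 6.98 in fibrotic kidneys, against 6.57, 6.12 and 6.06 in healthy ones, and 7.06, 6.19 and 6.01 in fibrotic lungs, against 7.12, 7.86 and 6.34 in healthy ones. Both fibrotic kidneys were above the healthy ones (1.12 ± 0.44, SE, adjusted p = 0.07), and the lungs overlapped. The remaining effectors passed the threshold in neither organ. Isg20, an exonuclease, was above background in fibrotic kidney 2 (6.59) and not in kidney 1 (4.64), changed by 0.67 ± 0.45 (SE, adjusted p = 0.27), and rose by 1.65 (adjusted p = 0.0015) only in the fit without kidney 1. Eif2ak2, the RNA-activated kinase PKR, spanned 9.85 to 10.06 in fibrotic kidneys and 9.37 to 9.54 in healthy ones (0.51 ± 0.21, SE, adjusted p = 0.081). Ifi35, a leucine-zipper protein, spanned 7.51 to 8.14 in fibrotic kidneys and 7.36 to 7.47 in healthy ones (0.40 ± 0.23, SE, adjusted p = 0.2). Xaf1, which promotes apoptosis, was not above background on any array, and Ifi44 was not analysed here.

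The GTPases and peptide transporters, taken here as interferon gamma targets, also rose in the kidney for the most part. Gbp3, a guanylate-binding protein that attacks pathogen vacuoles, read 9.59 and 10.98 in fibrotic kidneys, against 7.01, 7.15 and 7.75 in healthy ones, and 8.72, 9.06 and 8.59 in fibrotic lungs, against 9.28, 9.12 and 9.64 in healthy ones. It rose by 2.98 ± 0.37 (SE, adjusted p = 0.00021) in the kidney, with 3.67 without fibrotic kidney 1 and 2.28 without kidney 2, and all fibrotic lungs were below the healthy ones (-0.56 ± 0.34, SE, adjusted p = 0.22). Gbp2, of the same family, read 9.59 and 10.27 in fibrotic kidneys, against 7.69, 7.49 and 8.10 in healthy ones, and 10.39, 10.58 and 10.46 in fibrotic lungs, against 10.30, 10.53 and 10.60 in healthy ones. It rose by 2.17 ± 0.23 (SE, adjusted p = 8.3e-05) in the kidney, and the lungs overlapped, although a dim second probe, above background on 4 arrays, rose there by 1.17 (adjusted p = 0.0039). Their start regions are the Gbp2 and Gbp3 windows printed above, each with ISRE cores and no GAS.

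Irgm1 and Igtp are immunity-related GTPases that keep the effector GTPases off the cell's own membranes. Irgm1 read 12.43 and 12.47 in fibrotic kidneys, against 11.84, 11.51 and 11.85 in healthy ones, and 12.55, 12.50 and 12.19 in fibrotic lungs, against 12.94, 12.52 and 12.73 in healthy ones. It rose by 0.72 ± 0.18 (SE, adjusted p = 0.011) in the kidney, with 0.69 ± 0.23 (SE) without fibrotic kidney 2, and lungs overlapped. A second, dimmer probe of Irgm1, above background on all 11 arrays, changed by 0.35 in the kidney (adjusted p = 0.18). Igtp read 8.88 and 8.90 in fibrotic kidneys, against 7.99, 8.17 and 8.45 in healthy ones, and 8.26, 7.60 and 8.37 in fibrotic lungs, against 8.89, 9.07 and 9.78 in healthy ones. It fell by 1.16 ± 0.26 (SE, adjusted p = 0.0063) in the lung, while in the kidney both fibrotic arrays were above the healthy ones (0.68 ± 0.30, SE, adjusted p = 0.092). Gbp6 and the effector GTPase Iigp1, read by 4 probes, were not above background on any array.

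Tap1 and Tap2 together form the channel that carries peptides into the endoplasmic reticulum for class I molecules. Tap1 read 6.69 and 6.61 in fibrotic kidneys, against 5.30, 4.76 and 4.98 in healthy ones, and 7.05, 7.03 and 6.80 in fibrotic lungs, against 7.16, 7.14 and 7.53 in healthy ones. Healthy kidneys were not above background, and Tap1 was at least 2.52-fold higher in the fibrotic kidneys (adjusted p = 0.00014). All fibrotic lungs were a little below the healthy ones (-0.32 ± 0.17, SE, adjusted p = 0.18). Tap2 read 9.04 and 8.85 in fibrotic kidneys, against 8.10, 8.54 and 7.98 in healthy ones, and 8.47, 8.29 and 8.71 in fibrotic lungs, against 9.90, 10.08 and 9.45 in healthy ones. The organs moved in opposite directions: Tap2 rose by 0.74 ± 0.23 (SE, adjusted p = 0.029) in the kidney, a call lost without either fibrotic kidney (0.64 ± 0.30, SE, adjusted p = 0.12 without kidney 1) and without healthy kidney 1 or 3, and fell by 1.32 ± 0.21 (SE, adjusted p = 0.00089) in the lung, kept in every fit that left out 1 array.

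For most members the fibrosis changes of kidney and lung differed. The kidney change minus the lung change was positive and past the threshold for 27 of the 34 members and negative for 0, against 23.9% and 16.2% of all genes. Its median was 1.59 for type I targets, 18 of 24 of which were called, and 2.01 for interferon gamma targets, called 6 of 6. Gbp3 differed by 3.54 ± 0.50 (SE, adjusted p = 0.00048), Parp14 by 2.71 ± 0.37 (SE, adjusted p = 0.00039) and Oasl2 by 2.67 ± 0.52 (SE, adjusted p = 0.0027). Not called were Stat2, Ube2l6, Zbp1, Mx1, Isg20, Eif2ak2 and Ifi35. Calls of Trim25, Irf9, Ifit3, Bst2, Cmpk2 and Isg15 were lost when single arrays were left out, at adjusted p up to 0.15. With the mean of a gene's probes 21 of the 27 calls held, and those of Irf9, Ifit2, Ifit3, Usp18, Trim25 and Gbp2 were lost. In the authors' scaling, where the median of all genes was -0.77, 12 members were called higher and 2 (Zbp1 and Mx1) lower, and the values of Trim25 and Irgm1 turned to -0.18 and -0.06. Of the 27 calls 12 held there, 13 were lost and 2 turned sign. All 27 were above the median of all genes by at least 0.59 log2 units. They were picked on the same arrays, and that median largely takes the scaling out, so this is no check of the calls.

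**Figure D3:**
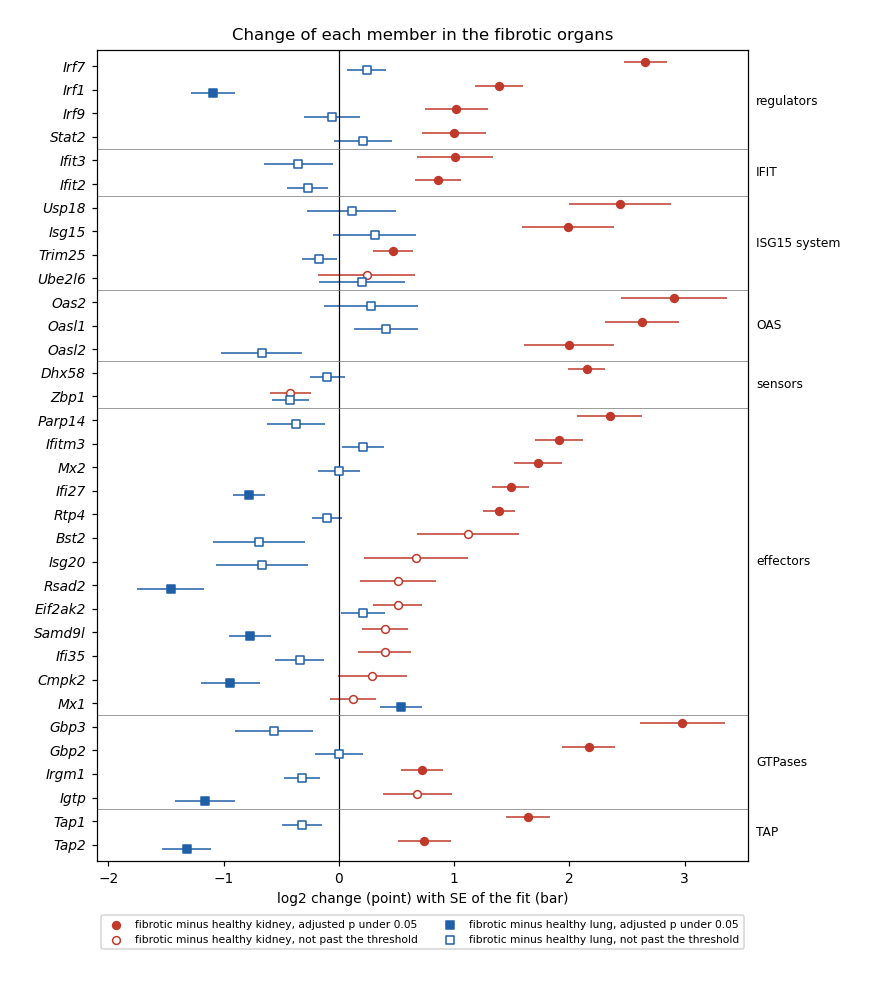
Log2 change of each of the 34 members, by role from top to bottom, with the SE of the fit as a bar: red circles are fibrotic minus healthy kidney and blue squares fibrotic minus healthy lung, filled where the adjusted p was under 0.05. Of the kidney points 23 are filled, all right of 0, and of the lung points 8 are filled, 7 of them left of 0.

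Where several probes read the same member, their changes did not always share a sign. Of 15 members with at least 2 probes above background, 1 (Ifit3) had kidney changes of both signs, and 8 (Irf1, Irf9, Ifit2, Ifit3, Ube2l6, Trim25, Oasl2 and Irgm1) had lung changes of both signs. For 0 members was 1 probe called higher and another lower in the same organ. Kidney rises were called on every probe above background for some members and not for others. Both probes of Gbp3 gave 2.98 and 2.69, those of Oasl1 2.63 and 1.95, and the 3 of Dhx58 2.15, 1.65 and 1.14. Gbp2, Usp18, Parp14 and Irgm1 had dimmer second probes at 0.21, 0.48, 0.57 and 0.35 that did not pass. Oasl2, with 2.00 and 1.15 on its brighter probes, had a dimmer one at 0.02 (adjusted p = 0.92) that was above background on 2 arrays.

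**Figure D4:**
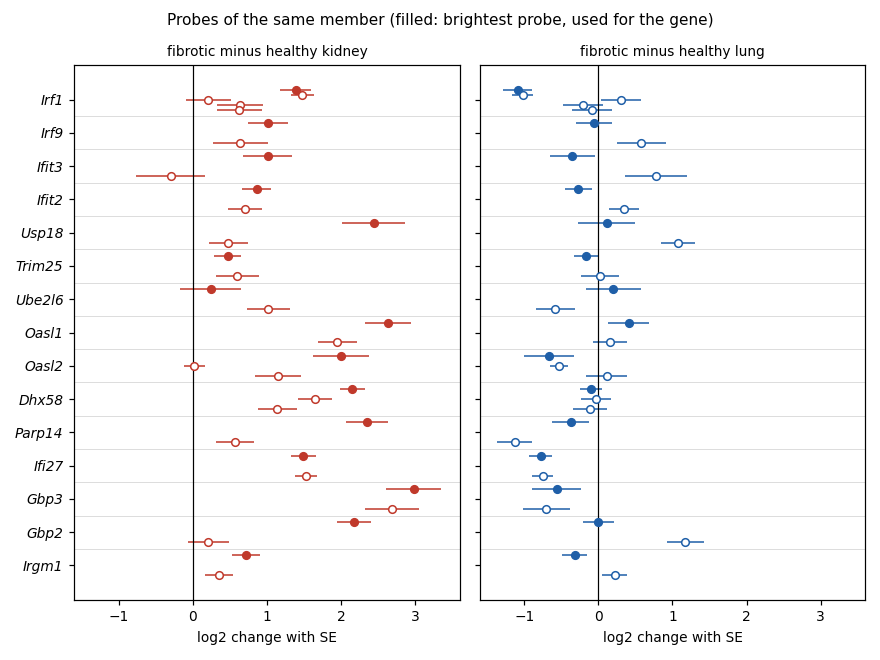
Log2 change of every probe above background for the 15 members with several probes, in the kidney (left, red) and in the lung (right, blue), with the SE as a bar. The filled point is the brightest probe, used for the gene. Kidney points lie right of 0 except 1 probe of Ifit3, and lung points lie on both sides of 0 for 8 members.

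The healthy organs began from different levels. Healthy kidneys were lower than healthy lungs for 27 of the 34 members and higher for 0, against 33.5% and 28.2% of all genes, and groups did not overlap for 28 that were lower and 1 (Samd9l) that was higher, against 37.8% and 31.9%. The median difference was -1.28 for type I targets and -1.82 for interferon gamma targets, against -0.09 over all genes. Usp18 differed by -3.19 ± 0.39 (SE, adjusted p = 4.7e-05), Ifitm3 by -2.78 ± 0.18 (SE, adjusted p = 5.4e-07), Gbp2 by -2.72 ± 0.21 (SE, adjusted p = 1.5e-06), and Irf1 by -2.70 ± 0.19 (SE, adjusted p = 7.8e-07). Members not above background in healthy kidneys were lower by bounds of at least 3.87-fold for Tap1, 2.69-fold for Dhx58 and 2.31-fold for Oas2. Irgm1 depended on the probe, with -1.0 for the brighter one and 0.68 (adjusted p = 0.0057) for the other. This comparison and the kidney comparison share the healthy kidneys, so their values are set side by side only. Fibrotic kidney means were above the healthy lung means for 15 of the 34, and healthy kidney means for 3.

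Upstream of the members, the interferons themselves were hardly measurable. Ifnb1, Ifng, Ifna2, Ifna4, Ifna5, Ifna9, Ifna12, Ifnk and Ifnl3 were not above background on any array, Ifne on 1, and of the 2 ligand probes that were tested, Ifna1 and Ifnab, neither passed the threshold in either organ. Receptors did change. Ifngr1 read 8.63 and 9.23 in fibrotic kidneys, against 7.56, 7.52 and 7.31 in healthy ones, and Ifngr2 9.61 and 9.96 in fibrotic kidneys, against 7.73, 8.47 and 7.98 in healthy ones. Both chains of the interferon gamma receptor were higher in every fibrotic kidney, by 1.46 ± 0.19 (SE, adjusted p = 0.00027) and 1.72 ± 0.24 (SE, adjusted p = 0.0004). In the lung Ifngr2 fell by 1.11 ± 0.22 (SE, adjusted p = 0.0029), and Ifngr1 differed by 0.34 ± 0.17 (SE, adjusted p = 0.15). Ifnar2, of the type I receptor, rose by 0.73 ± 0.20 (SE, adjusted p = 0.016) in the kidney, while its partner Ifnar1 was not above background. Ifnlr1, of the lambda receptor, fell by 0.56 ± 0.16 (SE, adjusted p = 0.022) in the lung, and Il10rb changed in neither organ past the threshold (0.16 and 0.27).

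Among 9 signalling kinases and factors tested, 3 rose and 0 fell in the kidney, and 3 rose and 3 fell in the lung. Over all genes 23.2% rose and 15.6% fell in the kidney, and 18.9% rose and 18.9% fell in the lung. Stat3, the factor of interleukin-6, rose by 1.94 ± 0.22 (SE, adjusted p = 0.00012) in the kidney and rose by 0.61 ± 0.20 (SE, adjusted p = 0.034) in the lung. Irf8, a factor of myeloid and dendritic cells, rose by 1.72 ± 0.29 (SE, adjusted p = 0.0012) in the kidney. In the lung Jak1, the kinase that both pathways share, fell by 1.12 ± 0.22 (SE, adjusted p = 0.0029), and Jak2, of the interferon gamma pathway, rose by 1.28 ± 0.25 (SE, adjusted p = 0.0027). Beside Tap1 and Tap2, 14 genes of class I presentation were tested: 8 rose and 0 fell in the kidney, and 3 rose and 8 fell in the lung. Psmb10, an immunoproteasome subunit, rose by 1.81 ± 0.16 (SE, adjusted p = 3.3e-05) in the kidney and fell by 0.80 ± 0.15 (SE, adjusted p = 0.002) in the lung. Psme1, of the proteasome activator, rose by 1.18 ± 0.13 (SE, adjusted p = 0.00012) in the kidney, and Tapbpl, a peptide editor, fell by 1.06 ± 0.17 (SE, adjusted p = 0.00099) in the lung. These falls carry the same dependence on scaling as those of the members.

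Markers of several cell types also changed, not always in the direction of the members. Marker counts here and in the next paragraph are read against the shares over all genes. These were 23.2% higher and 15.6% lower in the kidney, and 18.9% and 18.9% in the lung. In whole-organ RNA, more or fewer cells of a type and more or less RNA per cell cannot be told apart. All 11 macrophage markers tested rose in the kidney, with summed linear levels of 9250 to 15500 in fibrotic and 1390 to 1720 in healthy kidneys, and 8 of 11 rose in the lung, with 21000 to 34800 in fibrotic and 18200 to 19100 in healthy lungs. Plasmacytoid dendritic cells are the main source of type I interferon in blood, and of 5 of their markers tested 2 (Siglech and Tcf4) rose and 0 fell in the kidney, and 0 rose and 3 (with Pacsin1) fell in the lung. Siglech, the defining one, rose by 1.76 ± 0.32 (SE, adjusted p = 0.0019) in the kidney and fell by 2.38 ± 0.29 (SE, adjusted p = 0.00024) in the lung. Spib and Cox6a2 changed by -0.12 and -0.22 in the kidney (adjusted p = 0.8 and 0.86). Sums over the 5, to which Tcf4 and in the lung also Cox6a2 gave most, were 2660 to 2930 in fibrotic and 1510 to 1780 in healthy kidneys, and 5330 to 5660 in fibrotic and 7510 to 13700 in healthy lungs, and Ccr9 was not above background. Of 6 T and NK cell markers tested, 3 (Cd3d, Nkg7 and Prf1) rose in the kidney, where the sums overlapped at 5300 to 6120 in fibrotic and 5600 to 6370 in healthy kidneys and came mostly from Cd8b1. In the lung 5 fell, and sums were 1590 to 2190 in fibrotic and 2900 to 3850 in healthy lungs, with Cd4, Cd8a, Gzmb, Ncr1 and Klrk1 not above background.

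The B cell marker Cd79b fell by 2.60 ± 0.28 (SE, adjusted p = 0.00013) in the lung, with Ms4a1 and Pax5 not above background. Of 6 endothelial markers 3 rose and 1 fell in the kidney, with sums of 7660 to 8700 in fibrotic and 4300 to 5870 in healthy kidneys, and 4 fell in the lung, with sums of 14500 to 17600 in fibrotic and 30400 to 31500 in healthy lungs. Of 8 neutrophil markers 1 (Csf3r) rose in the kidney and 2 (Camp and Ngp) in the lung. Their sums were 379 in fibrotic kidney 1 and 7760 in kidney 2, against 307 to 498 in healthy kidneys, and 14300 to 28500 in fibrotic lungs, against 2580 to 20200 in healthy ones. S100a8 read 6.79 in fibrotic kidney 1 and 12.19 in kidney 2, whereas Mpo, Ngp and Elane were low in both. The part of these cell types in the members' changes was not tested. As a share of the linear distance from healthy kidneys to healthy lungs, 6 lung epithelial genes stood higher by a median of 1.84% in fibrotic kidney 1 and 0.673% in kidney 2, with at most 23% and 10.5%, both for Scgb1a1. The part of this lung signal in the members' changes was not tested either.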

How the data were processed

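Per the labels' protocols, Trizol-extracted RNA was amplified and biotinylated with an Ambion MessageAmp kit. The submitters' processing notes name GenomeStudio 5.0. The authors deposited raw intensities of 45281 probes with their detection p-values, and processed intensities. On every array the deposited processed intensity was a straight line of the raw one to within 0.109 intensity units, hence on a linear scale with the background taken off, 1 scaling factor an array and no centring, with medians of 16.2 and 16.8 in fibrotic kidneys, 23.4 to 28.8 in healthy kidneys, 16.4 to 24.7 in fibrotic lungs and 10.6 to 10.9 in healthy lungs. As slide and scan are not known here, no batch was tested.

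From the raw intensities, neqc in limma 3.58.1 (R 4.3.3) corrected the background with negative controls that it inferred from those p-values, added an offset of 16 and normalised by quantiles. The filter kept 24396 probes, those whose deposited p-value was under 0.05 on 2 or more arrays, and the brightest probe stood for a gene (12865 genes). Of all probes 34885 carried 1 gene symbol, 18 several and 10378 none. All 11 arrays entered 1 fit with a coefficient per group (lmFit, eBayes, 7 residual and 3.22 prior degrees of freedom). Where a gene was above background on no array of the dimmer group, "at least N-fold" sets the brighter group's mean against the dimmer group's mean, where an array counts with its lowest detected level or the probe's own level, whichever is higher. The fit, tested on simulated data with 12865 genes, recovered 43.3%, 89.6% and 93.9% of genes changed by 1, 2 and 3 log2 units in the kidney, and 52.2%, 94% and 95.5% in the lung. Only 67, 67 and 66 genes were changed by these sizes. In the data 4987 genes were called in the kidney and 4863 in the lung, which makes the adjusted threshold less strict. The simulated shares are therefore not the sensitivity of the comparisons reported.

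The members, roles and lists were chosen with earlier results of these data known. Named with every array were, per role, the 3 members with the smallest p in either fibrosis comparison, members called in the kidney minus lung change, and members whose probes disagreed. Of the pathway genes the receptors, Ifng, Ifnb1 and the 2 with the smallest p per list and organ were named. Titles pair the healthy kidneys and lungs by mouse. Their deviations from the group means correlated at r = -0.07, 0.01 and -0.11 within a mouse, and -0.0254 was the fitted correlation, so mice were not blocked. Alternatives were other background corrections, scalings, offsets, filters, probe rules and spread models, the mouse as a block, and leaving out each array.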

Additional observations from a re-analysis of the deposited data

Results flagged for a closer look

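For 27 members the change in the fibrotic kidney and the change in the fibrotic lung differed by a direct test, the kidney change minus the lung change in limma, with adjusted p-values from 6.3e-05 to 0.044 over all genes. Among the regulators the difference in log2 units was 2.48 for Irf1, 2.42 for Irf7 and 1.07 for Irf9. Among the IFIT, Isg15 system, OAS and sensor genes it was 2.67 for Oasl2, 2.63 for Oas2, 2.33 for Usp18, 2.25 for Dhx58, 2.22 for Oasl1, 1.68 for Isg15, 1.36 for Ifit3, 1.13 for Ifit2 and 0.65 for Trim25. Effectors differed by 2.71 for Parp14, 2.27 for Ifi27, 1.96 for Rsad2, 1.80 for Bst2, 1.74 for Mx2, 1.70 for Ifitm3, 1.49 for Rtp4, 1.23 for Cmpk2 and 1.17 for Samd9l, and the GTPases and peptide transporters by 3.54 for Gbp3, 2.17 for Gbp2, 2.06 for Tap2, 1.95 for Tap1, 1.85 for Igtp and 1.04 for Irgm1. All were positive on the brightest probe, that is, higher in the kidney comparison. A dimmer probe each of Ifit3 (-1.07), Gbp2 (-0.96), Usp18 (-0.59) and Irf1 (-0.10) was negative and did not pass the threshold. The other dimmer probes of these members were positive. With the mean of a gene's probes 21 of the 27 calls held, and those of Irf9, Ifit2, Ifit3, Usp18, Trim25 and Gbp2 were lost. For Irf7, Oas2, Oasl1, Dhx58, Mx2, Rtp4 and Tap1 the healthy kidneys were not above background, so these fitted values depend on the offset. The sex-linked difference of the fibrotic kidneys enters all 27 values and cannot be told apart from fibrosis in them. In groups of 2 and 3 arrays no single array was tested as an outlier.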

How the results depend on the processing

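Of 85 calls of single members over the 4 comparisons, 51 held in every alternative, and those of Trim25 (-0.18) and Irgm1 (-0.06) in the kidney change minus the lung change reversed in the authors' processed intensities. There the median of all genes was -0.24 in the kidney, 0.48 in the lung, -0.77 in their difference and 0.40 between the healthy organs, against 0.10, -0.03, 0.13 and -0.09 in the values reported. The share of called genes that were higher was then 32.1%, 88%, 14.3% and 67.6%, against 59.8%, 50.1%, 59.6% and 45.7%, and under a common median 77.1% in the kidney and 75.9% in the lung.

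In the authors' intensities, 1 member fell in the kidney, 10 rose and 2 fell in the lung, 12 were higher and 2 lower in the kidney minus lung change, and 2 were higher in healthy kidneys. Medians of type I targets were 0.33 (lung), 0.64 (kidney minus lung) and -0.76 (healthy organs), and of interferon gamma targets 0.84 (kidney), 0.14 (lung), 1.17 (kidney minus lung) and -1.52 (healthy organs). Scaling to a common median gave 3 higher and 4 lower in the lung, 1 higher in healthy kidneys, type I medians of 1.33 (kidney) and 0.08 (lung), and gamma medians of 1.39 (kidney), -0.09 (lung) and -2.08 (healthy organs).

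Settings that compress or add dim values moved medians without turning them. Without background correction, type I medians were 0.63 (kidney), 0.90 (kidney minus lung) and -0.61 (healthy organs), gamma medians 0.67, 1.61 and -1.18. With an offset of 50 they were 0.81, 1.18 and -0.86, and 0.86, 1.81 and -1.50. With no filter on detection they were 0.67, 1.34 and -0.97 for type I, and for gamma 0.73 (kidney), -0.32 (lung) and -1.32 (healthy organs). The mean of a gene's probes gave gamma medians of 0.96 (kidney) and -1.56 (healthy organs), and 2 members rose in the lung. The rise of Mx1 in the lung was absent (0 higher) without background correction, with the offset of 50, under the stricter filter and in the fit of only the groups compared. Samd9l became the 1 member higher in healthy kidneys in that last fit, with an intensity trend and with the mouse as a fixed replicate block. The random replicate block changed no count by over 1.5 times.

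Leaving out each array gave 17 to 23 members higher and 0 to 1 lower in the kidney (1 lower and 17 higher without fibrotic kidney 2), 0 to 2 higher and 6 to 8 lower in the lung (2 higher without fibrotic lung 2, 0 without any other lung array), 22 to 25 higher and 0 lower in the kidney minus lung change, and 0 higher and 26 to 28 lower in healthy kidneys. Type I medians then spanned 0.98 to 1.24, -0.28 to -0.06, 1.43 to 1.64 and -1.33 to -1.16 in the same order, and gamma medians 1.16 to 1.29, -0.55 to -0.35, 1.92 to 2.09 and -1.87 to -1.71. The causes were not tested. Changes of 1 log2 unit were often missed in the simulated data, which held far fewer changed genes than were called here. How often they were missed in the data is not known. Members that did not pass are not shown to be level, and dim members have bounds only.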

Other observations

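Counts for genes around the pathway, outside the 43 members, are read against 23.2% higher and 15.6% lower over all genes in the kidney and 18.9% and 18.9% in the lung. Of 11 genes of nucleic acid sensing tested, 7 rose and 0 fell in the kidney, and 3 rose and 1 fell in the lung. Cgas, the sensor of cytosolic DNA, read 7.12 and 8.03 in fibrotic kidneys, against 4.99, 5.10 and 5.24 in healthy ones, and rose by 2.47 ± 0.29 (SE, adjusted p = 0.00013) log2 units, with 0.19 ± 0.26 (SE, adjusted p = 0.59) in the lung. Trex1, the exonuclease that clears such DNA, rose by 0.94 ± 0.14 (SE, adjusted p = 0.00053) in the kidney and rose by 0.74 ± 0.12 (SE, adjusted p = 0.0013) in the lung. Tlr7, an endosomal RNA sensor of myeloid cells, read 8.74, 8.77 and 8.15 in fibrotic lungs, against 6.17, 6.32 and 6.36 in healthy ones, and rose by 2.27 ± 0.23 (SE, adjusted p = 0.0001) in the lung and 1.65 ± 0.26 (SE, adjusted p = 0.00071) in the kidney. Of 7 inhibitors 3 rose in the kidney and 1 in the lung, and 0 fell in either organ, the lung count being near the share over all genes.

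Socs3, the feedback inhibitor of interleukin-6 signalling, read 10.22 and 11.61 in fibrotic kidneys, against 5.78, 4.98 and 5.98 in healthy ones, and 11.13, 11.61 and 11.44 in fibrotic lungs, against 9.14, 9.01 and 8.89 in healthy ones. It rose by 5.34 ± 0.39 (SE, adjusted p = 1e-05) in the kidney and rose by 2.38 ± 0.35 (SE, adjusted p = 0.00058) in the lung without overlap in either. Ptpn6, a phosphatase of blood cells, rose by 0.51 ± 0.15 (SE, adjusted p = 0.021) in the kidney, and Ptpn2 differed by 0.78 ± 0.33 (SE, adjusted p = 0.089) in the lung. Of 11 further genes induced by interferon gamma, 4 rose and 0 fell in the kidney, and 1 rose and 3 fell in the lung. Gbp7, of the guanylate-binding family, read 7.60 and 8.20 in fibrotic kidneys, against 4.62, 6.47 and 6.05 in healthy ones, and rose by 2.19 ± 0.44 (SE, adjusted p = 0.0031). Ciita, the activator of class II genes, rose by 1.91 ± 0.40 (SE, adjusted p = 0.004) in the kidney and fell by 1.60 ± 0.36 (SE, adjusted p = 0.0061) in the lung. Cxcl10, a chemokine for T cells, rose by 1.69 ± 0.37 (SE, adjusted p = 0.005) in the lung and differed by 0.99 ± 0.41 (SE, adjusted p = 0.079) in the kidney.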
